A study of Mus musculus with 12 samples.

Results

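The genes described are 10 enzymes of amino acid, nucleotide, sterol and cofactor metabolism that are known as interferon-stimulated genes: Gch1, Nos2, Ido1, Acod1, Wars, Cmpk2, Samhd1, Rsad2, Ch25h and Lap3. They were taken by symbol, 10 of the 55536 genes obtained by summing the deposited transcript estimates, and 8 of the 10 were among the 18995 genes that passed a filter on low counts. RNA-seq was performed on cultured mouse oligodendrocyte precursor cells (OPCs) in 12 libraries, 3 from separate litters in each of 4 groups: no treatment (Ctr), the EZH2 inhibitor EPZ011989 at 1.5 μM for 4 days (EZH2i), IFN-γ at 100 ng/ml for 6 h (IFN-γ), and EZH2i for 4 days with IFN-γ added for the last 6 h (IFN-γ + EZH2i). All cells were isolated at postnatal days 4 to 6 from pooled brains, by sorting for GFP from a Sox10-driven Cre reporter or by CD140a beads, and the labels name all of them Sox10GFP+ OPCs. They were grown in a proliferation medium with PDGFaa and bFGF. The labels give EAE as the mouse model of every sample, including Ctr, while the growth protocol describes pup brains, and no group here is an EAE group set against healthy animals.

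IFN-γ binds a surface receptor that signals through JAK kinases to GAS elements in gene promoters, and it induces transcription factors such as IRF1 that act on further promoters. Many of the genes induced in this way are enzymes that use up or remodel small molecules: tryptophan, nucleotides, sterols and intermediates of the TCA cycle. In macrophages and microglia these enzymes are known to starve intracellular pathogens or to make antimicrobial products. EZH2 is the methyltransferase of the Polycomb complex PRC2, which deposits the repressive histone mark H3K27me3.

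After 6 h of IFN-γ, 8 of the 10 enzymes were called higher than in Ctr, against 6.65% of all genes tested. Of these, 7 were also called higher with IFN-γ + EZH2i than with EZH2i alone, against 5.9% of all genes. All 8 were called there in the fit with replicate as a block, which was used since these 2 groups were taken as paired. Ido1 and Ch25h passed the count filter only through the groups with IFN-γ, so a difference was a condition of their being tested. The fitted change ran from 2.45-fold for Gch1, the entry enzyme of tetrahydrobiopterin synthesis, to 134-fold for Ch25h, which makes 25-hydroxycholesterol. The value of Ch25h rests on 6, 0 and 8 counts in Ctr, with a 95% interval of 5.79 to 8.34 on the log2 scale. Wars and Lap3, which were already at 28.4 ± 7.17 and 36.5 ± 10.5 TPM (length-normalized transcript abundance, SD, n = 3) in Ctr, reached the highest levels. Acod1, the itaconate-producing enzyme, reached at most 17 counts in a library, and Nos2, the inducible nitric oxide synthase, stayed at 9 counts or fewer in all 12 libraries. EZH2i on its own changed none of the tested enzymes at the threshold.

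Library totals lay between 17403896 and 66546017 counts, and Ctr replicate 2 was the shallowest. Levels are given as TMM-normalized CPM, unless TPM is named. The test of each difference was edgeR's quasi-likelihood test, and a gene was called at a Benjamini-Hochberg adjusted p under 0.05 over the 18995 genes. Summed CPM over 12 microglia and macrophage markers was 2.22 to 2.77 in Ctr, 2.25 to 3.07 with EZH2i, 3.14 to 4.52 with IFN-γ and 2.55 to 3.38 with IFN-γ + EZH2i, with Aif1, C1qa, Tyrobp, Fcer1g and Adgre1 at 3 counts or fewer in every library and C1qa at 0 in all. The 5 T cell markers summed to at most 0.479 CPM in any library. The 7 OPC markers summed to 4304 CPM or more everywhere. Their sum was lower with IFN-γ (5292 to 7130) than in Ctr (8111 to 8375), with Pdgfra (1505 to 715.5 CPM on average) and Cspg4 (791.9 to 355.5) called lower. The others were not called: Sox10 (459 in Ctr and 485 with IFN-γ), Ptprz1 (2222 and 2171), Olig1 (1123 and 905), Olig2 (495 and 371) and Gpr17 (1621 and 1040). The sum of 6 neuronal markers was 34.8 to 48.1 CPM in Ctr and 686 to 1279 with IFN-γ. Nearly all of that rise was Tubb3 (26.7 to 916 CPM on average), and the other 5 summed to 14.1 to 15.0 CPM in Ctr and 16.5 to 22.8 with IFN-γ. Of these, Syt1 (1.51 to 6.26 CPM) and Stmn2 (0.106 to 0.855) were called higher, while Rbfox3 (1.78 and 1.25), Snap25 (11.1 and 10.4) and Slc17a6 (0 and 0.0289) were not called. With EZH2i the OPC markers summed to 6700 to 7100 CPM, and with IFN-γ + EZH2i to 4304 to 5199. The 7 astrocyte markers summed to 1466 to 2582 CPM in Ctr, 1855 to 3228 with EZH2i, 1424 to 2845 with IFN-γ and 1911 to 3328 with IFN-γ + EZH2i, and 0 of them were called by edgeR between IFN-γ and Ctr. The 7 markers of mature oligodendrocytes summed to 1505 to 1914, 829 to 1319, 1413 to 1668 and 793 to 1309 CPM in the same order. In bulk RNA, fewer cells of a type and less RNA per cell cannot be told apart, and the part of these marker changes in the results was not tested.

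**Figure D1:**
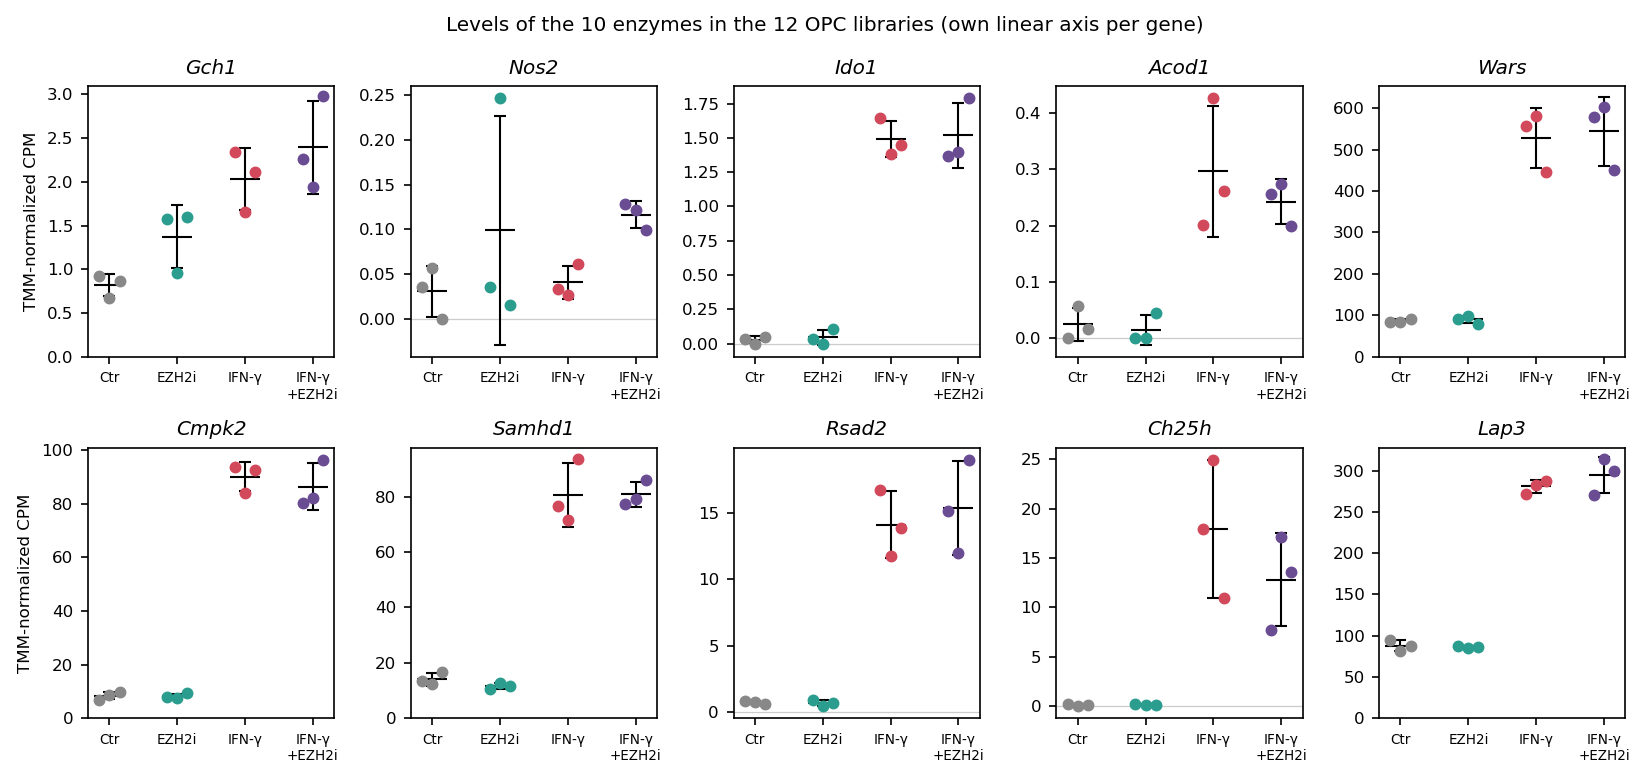
Levels of the 10 enzymes in each library, as TMM-normalized CPM on a linear axis of its own for each gene. Points are libraries, horizontal marks are means and bars are SD (n = 3). All of the 6 libraries with IFN-γ lie above all of the 6 without it for every gene but Nos2. For Gch1 the lowest library with IFN-γ is only 1.04 times the highest without it. The share of all genes that separate in this way was not determined.

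Compared per length, the order of the enzymes in Ctr was Lap3, Wars, Samhd1 (4.30 ± 1.80 TPM), Cmpk2 (2.41 ± 0.643 TPM), Gch1 (0.206 ± 0.0514 TPM), Rsad2 (0.138 ± 0.0260 TPM), Ch25h (0.0611 ± 0.0529 TPM), Ido1 (0.0144 ± 0.0150 TPM), Acod1 and Nos2. With IFN-γ it was Wars (192 ± 39.1 TPM), Lap3 (140.2 ± 26.6 TPM), Samhd1 (26.9 ± 5.73 TPM), Cmpk2 (25.2 ± 2.10 TPM), Ch25h (11.8 ± 5.63 TPM), Rsad2 (2.96 ± 0.342 TPM), Ido1 (0.795 ± 0.0701 TPM), Gch1 (0.592 ± 0.0546 TPM), Acod1 (0.0954 ± 0.0472 TPM) and Nos2 (0.00936 ± 0.00372 TPM). Ch25h moved ahead of Rsad2, and Ch25h, Rsad2 and Ido1 all moved ahead of Gch1, and these pairs did not overlap in TPM in the IFN-γ libraries. Wars overlapped Lap3 and Samhd1 overlapped Cmpk2 in both groups, and Ch25h overlapped Ido1 in Ctr. Within libraries, however, Lap3 was above Wars in 3 of 3 Ctr libraries and Wars above Lap3 in 3 of 3 IFN-γ libraries. Samhd1 was above Cmpk2 in 3 of 3 Ctr libraries and in 1 of 3 with IFN-γ, and Ch25h was above Ido1 in 2 of 3 Ctr libraries. No test was run on this order.

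Of the 8 enzymes tested, 8 were called higher and 0 lower with IFN-γ than in Ctr, where 6.65% of all genes tested were called higher and 2.1% lower. Ido1 and Ch25h passed the count filter only through the groups with IFN-γ, so a difference was a condition of their being tested. The 6 that passed in every group (Gch1, Wars, Cmpk2, Samhd1, Rsad2 and Lap3) had a median log2 fold change of 2.56, against 0.0010 over all genes. With EZH2i in both arms, 7 of the 8 were called higher and 0 lower, against 5.9% and 2.17% of all genes, in the fit without the replicate block. With the block Gch1 was called too. For IFN-γ + EZH2i against Ctr all 8 were called higher, against 8.81% of all genes. The comparisons with Ctr share the same 3 Ctr libraries, and each is given by its own values.

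**Figure D2:**
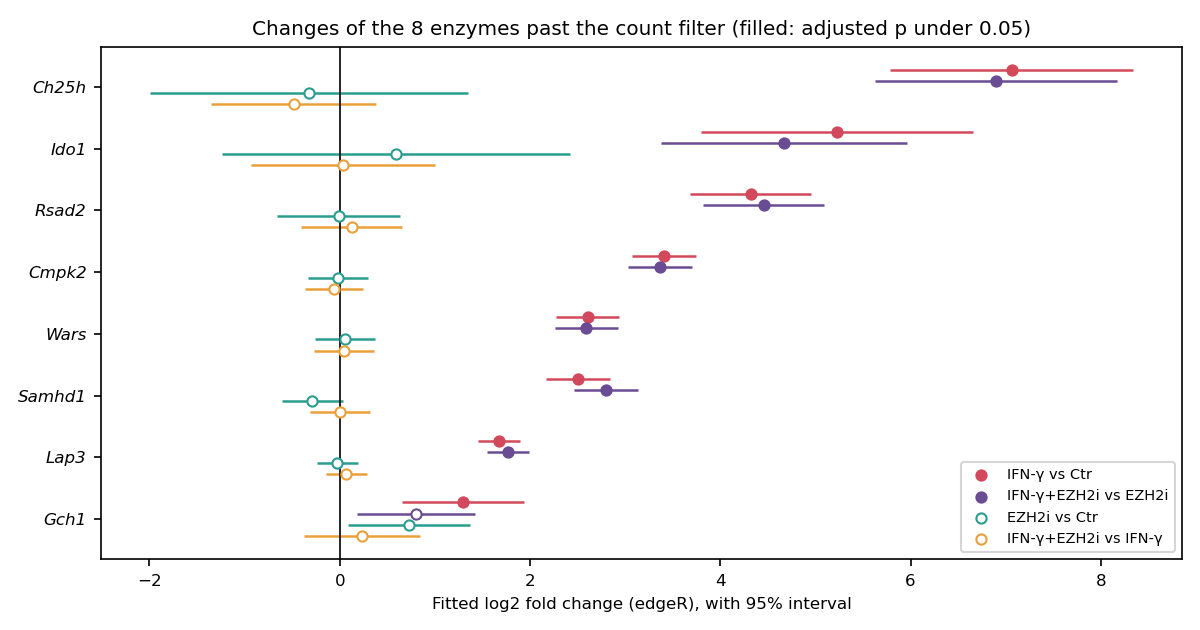
Fitted log2 fold change (edgeR) with its 95% interval for the 8 enzymes past the count filter, in 4 comparisons. Filled points were called. The effects of IFN-γ lie to the right of 0, between 0.80 and 7.06, and the effects of EZH2i lie between -0.48 and 0.73 with intervals that widen for Ido1 and Ch25h, the genes with the fewest counts in the groups without IFN-γ. The value of Ido1 against Ctr depends on how the fit treats very low counts and is no bound.

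Cmpk2, Samhd1 and Rsad2 act on nucleotides or build them into antiviral products. CMPK2 is a mitochondrial kinase that phosphorylates CMP and UMP, RSAD2 (viperin) converts CTP into a chain-terminating analogue that is missing a hydroxyl group, and SAMHD1 hydrolyses dNTPs and so limits reverse transcription. Cmpk2 (chr12:26469204-26479837, plus strand, GRCm38) and Rsad2 (chr12:26442746-26456452, minus strand) are neighbours that face away from each other with 12751 bases and no annotated gene between them. Samhd1 lies on chr2:157097533-157135265 on the minus strand.

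Promoter sequences of 7 of the 10 enzymes were found in the RefSeq table for GRCm38.p6, each from 250 bases before to 50 bases after the RefSeq start; Nos2, Ido1 and Wars were not among them. Both strands were searched for the GAS motif TTCNNNGAA and for the core of the interferon-stimulated response element, GAAANNGAAA. Over 32851 promoters of this length, 8.3% hold the GAS motif, 3.44% the core and 11.3% either. Samhd1 has a GAS motif, Rsad2 has the core, and Gch1, Acod1, Cmpk2, Ch25h and Lap3 have neither in this window, which says nothing of other forms of the motifs or of other regions. The stretches that hold the matches are shown because they are the only ones among the 7, in the direction of transcription, with the match in capitals. The stretch from Samhd1 is chr2:157135292-157135346 (minus strand), and its match lies 235 to 227 bases before the RefSeq start. That RefSeq start is 169 bases inside the GENCODE gene. The stretch from Rsad2 is chr12:26456533-26456602 (minus strand), and its match lies 120 to 111 bases before the RefSeq start and reads GAAAATGAAA on the other strand.
Samhd1: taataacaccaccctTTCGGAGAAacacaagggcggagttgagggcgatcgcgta
Rsad2: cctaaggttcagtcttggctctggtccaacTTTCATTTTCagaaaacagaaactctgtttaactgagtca

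Cmpk2 was at 6.99, 8.58 and 9.84 CPM in the Ctr libraries and at 93.8, 84.0 and 92.6 with IFN-γ. It was at 8.04, 7.70 and 9.35 CPM with EZH2i and at 80.5, 82.3 and 96.6 with IFN-γ + EZH2i. The 2 groups without IFN-γ overlapped each other, as did the 2 with it, and the 2 ranges were far apart. IFN-γ raised Cmpk2 by 3.41 on the log2 scale (SE 0.15, edgeR with Benjamini-Hochberg adjusted p = 1.92e-08), or 10.6-fold, and by 3.37 (SE 0.15, adjusted p = 1.96e-08) in the presence of EZH2i.

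Rsad2 was at 0.816, 0.734 and 0.594 CPM in Ctr and at 16.7, 11.7 and 13.8 with IFN-γ. It was at 0.929, 0.466 and 0.713 CPM with EZH2i and at 15.1, 11.97 and 19.0 with IFN-γ + EZH2i. The lowest library with IFN-γ was thus over 11 CPM and the highest without it under 1. The rise with IFN-γ was 4.32 on the log2 scale (SE 0.29, edgeR with Benjamini-Hochberg adjusted p = 8.84e-07), 20.0-fold, and 4.46 (SE 0.29, adjusted p = 5.81e-07) with EZH2i in both arms. Per length, Rsad2 stayed below its neighbour Cmpk2 in every group, at 2.96 ± 0.342 against 25.2 ± 2.10 TPM with IFN-γ.

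Samhd1 was at 13.4, 12.3 and 16.8 CPM in Ctr and at 76.6, 71.5 and 93.6 with IFN-γ. With EZH2i it was at 10.6, 12.6 and 11.6 CPM, and with IFN-γ + EZH2i at 77.2, 79.3 and 85.9. The groups with and without IFN-γ did not overlap. The rise was 2.51 on the log2 scale (SE 0.15, edgeR with Benjamini-Hochberg adjusted p = 3.19e-07), 5.68-fold, and 2.80 (SE 0.15, adjusted p = 1.19e-07) with EZH2i in both arms.

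Of 27 other genes of nucleotide supply and breakdown, all tested, 4 were called higher with IFN-γ than in Ctr and 0 lower. Of all genes, 6.65% were called higher and 2.1% lower. The same 4 were called higher with EZH2i in both arms, against 5.9% of all genes. Among these 4 were Xdh, the oxidase of purine breakdown (log2 fold change 4.06, SE 0.62, edgeR with Benjamini-Hochberg adjusted p = 0.000983), Upp1, a uridine phosphorylase (1.89, SE 0.26, adjusted p = 0.000437), and Pnp, a purine nucleoside phosphorylase (0.90, SE 0.23, adjusted p = 0.0283), with the values against Ctr. Cmpk1, the cytosolic counterpart of Cmpk2, was at 59.7 ± 9.36 CPM in Ctr and 66.1 ± 7.68 with IFN-γ (log2 fold change 0.15, SE 0.14, adjusted p = 0.676). Xdh reached 3.06 ± 0.841 CPM with IFN-γ and 6.19 CPM on average with IFN-γ + EZH2i, from 0.191 ± 0.0845 in Ctr. Xdh reached the level of the count filter in 1 of the 6 libraries without IFN-γ. A difference was thus a condition of its being tested.

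Wars (chr12:108860030-108894174, minus strand) encodes the cytosolic tryptophanyl-tRNA synthetase, and Ido1 (chr8:24584136-24597009, minus strand) encodes indoleamine 2,3-dioxygenase, which breaks down tryptophan to formylkynurenine. Wars was at 84.1, 84.1 and 91.9 CPM in Ctr and at 557, 580.5 and 445.5 with IFN-γ. It was at 92.1, 98.0 and 80.3 CPM with EZH2i and at 578, 603 and 449.6 with IFN-γ + EZH2i. Replicate 3 was the lowest of both groups with IFN-γ and was still 4.55 times the highest library without it. The rise was 2.61 on the log2 scale (SE 0.15, edgeR with Benjamini-Hochberg adjusted p = 2.16e-07), 6.08-fold, and 2.59 (SE 0.15, adjusted p = 2.17e-07) with EZH2i in both arms.

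Of 2 transcript starts at the 5′ end of Wars, the rise lay mainly in one. Wars-201, with its first exon at 108894069 to 108894174 of chromosome 12, and Wars-205, with its first exon at 108893160 to 108893198, start 976 bases apart and share the same coding start at 108888486 and the same coding length of 1425 bases, so they differ before the coding sequence. Wars-204 starts 1 base from Wars-205 and has a coding length of 1443 bases. The transcripts were therefore summed by start, the upstream start being that of Wars-201, Wars-202 and Wars-206 and the downstream start that of Wars-204 and Wars-205. The retained-intron transcripts Wars-203 and Wars-207 start inside the gene and were summed on their own. This split was made after the transcript values were seen.

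The downstream start was at 1.62, 0.703 and 1.71 TPM in Ctr and at 122, 158 and 95.1 TPM with IFN-γ. With EZH2i it was at 1.71, 2.76 and 1.99 TPM and with IFN-γ + EZH2i at 131, 140.3 and 90.3 TPM. The upstream start was at 14.6, 19.7 and 25.7 TPM in Ctr and at 28.8, 40.6 and 31.5 TPM with IFN-γ. The downstream start thus went from the minor to the major one in every library with IFN-γ, from 6.54 ± 3.26% of both starts in Ctr and 7.75 ± 1.41% with EZH2i to 78.5 ± 3.05% with IFN-γ and 80.4 ± 2.99% with IFN-γ + EZH2i (SD, n = 3). The internal transcripts, which are in none of these percentages, were at 4.19, 9.95 and 6.98 TPM in Ctr, above the downstream start there, and at 49.96, 26.8 and 21.96 TPM with IFN-γ. They were at 7.70, 4.32 and 3.57 TPM with EZH2i and at 53.3, 22.4 and 20.8 TPM with IFN-γ + EZH2i, so they too were higher in every library with IFN-γ. Wars-205 itself was listed at 0 in the 6 libraries without IFN-γ and at 74.6 to 129 TPM in the 6 with it.

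**Figure D3:**
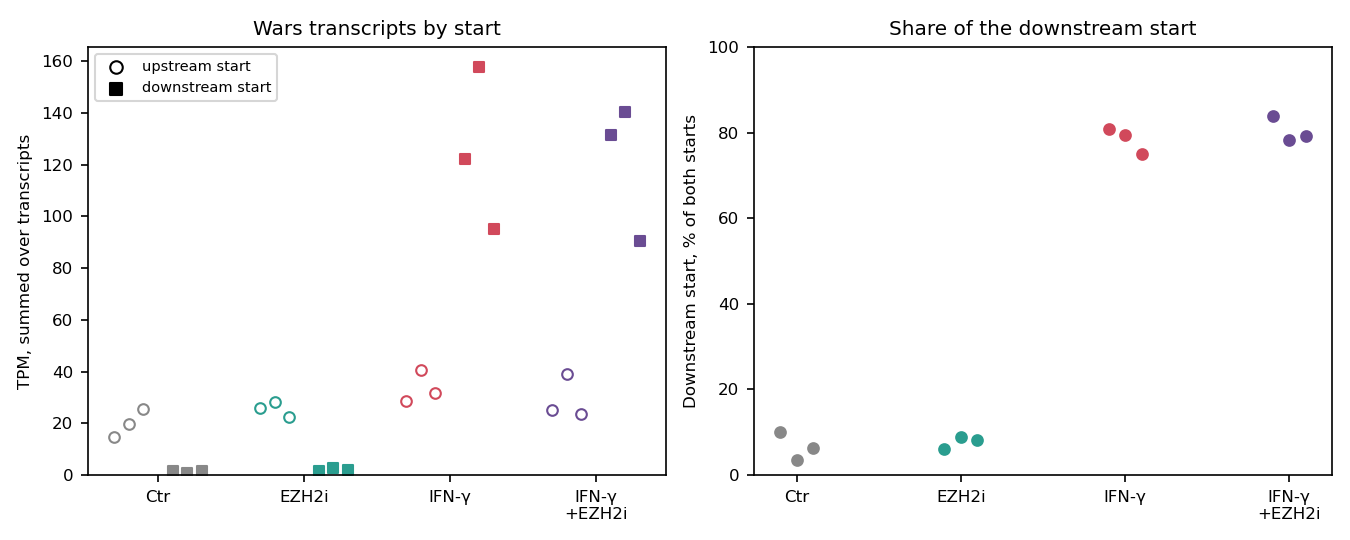
Wars by transcript start in each of the 12 libraries. Left, TPM summed over the transcripts of the upstream start (open circles) and of the downstream start (filled squares). Right, the downstream start as a percentage of both. The internal retained-intron transcripts are not plotted. The squares rise from under 3 TPM to between 90.3 and 158 TPM with IFN-γ, while the circles stay between 14.6 and 40.6 TPM in all groups.

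In an edgeR fit in which Wars was split by start, 6.65% of the 18997 features were called higher with IFN-γ than in Ctr. The downstream start rose by 6.82 on the log2 scale (SE 0.37, Benjamini-Hochberg adjusted p = 9.16e-08), and the upstream start had a log2 fold change of 0.51 (SE 0.15, 95% interval 0.18 to 0.84, adjusted p = 0.0588). With EZH2i in both arms the values were 6.59 (SE 0.36, adjusted p = 1.08e-07) and 0.36 (SE 0.15, adjusted p = 0.231). The internal transcripts rose by 2.05 (SE 0.46, adjusted p = 0.0146), and by 2.85 (SE 0.48, adjusted p = 0.00203) with EZH2i in both arms. Salmon divides reads shared by several transcripts, and the uncertainty of this division is not part of the test. Other genes on the plus strand overlap Wars: Wdr25 was at 5.87 to 6.77 CPM in Ctr and 8.70 to 9.72 with IFN-γ (adjusted p = 0.104), and 5033424D13Rik rose (log2 fold change 3.14, SE 0.77, adjusted p = 0.0234) but stayed at 1.49 CPM or less. The kit marks strand, the strand setting of the counting is not given in the sources used here, and the part of these genes in the values of Wars was not tested.

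Ido1 was at 1, 0 and 3 counts in Ctr and at 49, 52 and 94 counts with IFN-γ, or 1.64, 1.39 and 1.45 CPM. It was at 1, 0 and 7 counts with EZH2i and at 32, 46 and 72 counts, or 1.37, 1.40 and 1.79 CPM, with IFN-γ + EZH2i. No library with IFN-γ came near those without it, although the level stayed low. All Ctr libraries were at or under the detection floor of 3 counts, so the change against Ctr is a lower bound, at least 13.7-fold higher with IFN-γ (edgeR with Benjamini-Hochberg adjusted p = 0.000213) and at least 13.9-fold with IFN-γ + EZH2i. Against EZH2i alone the rise was 4.67 on the log2 scale (SE 0.59, adjusted p = 0.000231). Ido1 passed the count filter only through the groups with IFN-γ, so a difference was a condition of these tests.

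Of 13 other genes of tryptophan transport and the kynurenine pathway, 7 were tested. With IFN-γ 2 were called higher than in Ctr and 0 lower, against 6.65% and 2.1% of all genes. Ido2, the paralogue of Ido1, went from 0.316 ± 0.0869 to 3.40 ± 1.23 CPM (log2 fold change 3.46, SE 0.40, edgeR with Benjamini-Hochberg adjusted p = 0.000107). Ido2 reached the level of the count filter in 2 of the 6 libraries without IFN-γ. A difference was thus a condition of its being tested. Kyat3, an aminotransferase that makes kynurenic acid, went from 4.24 ± 1.01 to 19.3 ± 3.30 CPM (2.17, SE 0.20, adjusted p = 1.54e-05). Kmo, the hydroxylase of the other branch, stayed at 21 counts or fewer in all libraries, Kynu at 1 or fewer, and neither passed the filter. The tryptophan transporter subunit Slc7a5 was at 105 ± 7.14 CPM in Ctr and 102 ± 3.37 with IFN-γ.

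Of 20 other aminoacyl-tRNA synthetases, 5 were called higher with IFN-γ and 0 lower, against 6.65% and 2.1% of all genes. The 5 were Kars (log2 fold change 0.97, SE 0.12, edgeR with Benjamini-Hochberg adjusted p = 0.000182), Yars (0.84, SE 0.19, adjusted p = 0.0160), Gars (0.45, SE 0.12, adjusted p = 0.0375), Rars (0.44, SE 0.12, adjusted p = 0.0427) and Tars (0.43, SE 0.11, adjusted p = 0.0249). Their rises were smaller than that of Wars, and the median log2 fold change over the 20 was 0.18. With EZH2i in both arms 4 of these 5 were called, against 5.9% of all genes called higher, and Yars had a log2 fold change of 0.58 (SE 0.19, adjusted p = 0.103).

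Gch1 (chr14:47153895-47189413, minus strand) encodes GTP cyclohydrolase 1, which starts the synthesis of tetrahydrobiopterin, the cofactor of the nitric oxide synthases and of the aromatic amino acid hydroxylases. Nos2 (chr11:78920787-78960254, plus strand) is the inducible one of these synthases. Gch1 was at 0.922, 0.678 and 0.865 CPM in Ctr and at 2.35, 1.65 and 2.11 with IFN-γ. It was at 1.57, 0.959 and 1.59 CPM with EZH2i and at 2.27, 1.95 and 2.98 with IFN-γ + EZH2i. Each of the treated groups lay above Ctr with no overlap, and the libraries rested on 12 to 137 counts.

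The rise of Gch1 with IFN-γ was 1.29 on the log2 scale (SE 0.29, edgeR with Benjamini-Hochberg adjusted p = 0.0155), 2.45-fold. It was the least certain of the 8, since the adjusted p was 0.0777 without Ctr replicate 2, 0.0547 without Ctr replicate 3 and 0.0555 without IFN-γ replicate 1. With EZH2i in both arms the change was 0.80 (SE 0.28, 95% interval 0.18 to 1.42, adjusted p = 0.130), and a fit with replicate as a block, since these groups were taken as paired, gave 0.82 (SE 0.20, adjusted p = 0.0131), which was called. Between EZH2i and Ctr, Gch1 had a log2 fold change of 0.73 (SE 0.29, unadjusted p = 0.0295, edgeR with Benjamini-Hochberg adjusted p = 0.590), with no overlap between the groups. Of all genes tested, 7.37% were higher with EZH2i than in Ctr without overlap.

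Nos2 was at 1, 1 and 0 counts in Ctr, at 1, 9 and 1 with EZH2i, at 1, 1 and 4 with IFN-γ and at 3, 4 and 4 with IFN-γ + EZH2i. At these depths a count of 3 corresponds to 0.0455 to 0.169 CPM, no change was detectable, and no fold is given. Without the filter on low counts the adjusted p for IFN-γ against Ctr was 0.854 (edgeR with Benjamini-Hochberg adjustment), and for IFN-γ + EZH2i against Ctr it was 0.430. Of 17 other genes of tetrahydrobiopterin, arginine and nitric oxide metabolism, 16 were tested. Nos1, the neuronal synthase, was the one called higher with IFN-γ, with 0 lower, against 6.65% and 2.1% of all genes. Nos1 was at 7, 0 and 3 counts in Ctr and at 64, 13 and 116 with IFN-γ (log2 fold change 3.79, SE 0.80, adjusted p = 0.0101). Nos1 reached the level of the count filter in 0 of the 6 libraries without IFN-γ. A difference was thus a condition of its being tested. Of the 6 neuronal markers given above, 3 were called higher with IFN-γ. The 5 without Tubb3 summed to 27.1 to 43.3 CPM with EZH2i and 14.1 to 15.0 in Ctr. Nos1 averaged 0.0674 and 0.0997 CPM in these 2 groups. The part of neurons in the value of Nos1 was not tested. The next enzymes of the pathway, Pts and Spr, were at 14.4 ± 3.77 and 18.9 ± 1.60 CPM in Ctr and at 14.2 ± 5.08 and 19.3 ± 3.32 CPM with IFN-γ. Ass1, which regenerates arginine, was at 0.636 ± 0.310 and 0.553 ± 0.305 CPM.

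Acod1 (chr14:103046977-103056573, plus strand) encodes the decarboxylase that makes itaconate from cis-aconitate, a reaction best known from activated macrophages. It was at 0, 1 and 1 counts in Ctr and 0, 0 and 3 with EZH2i, and at 6, 16 and 17 counts with IFN-γ and 6, 9 and 8 with IFN-γ + EZH2i. Every library with IFN-γ was above every library without it, but all were low. Against the floor of 3 counts per library, Acod1 was at least 2.72-fold higher with IFN-γ than in Ctr, at least 3.10-fold with IFN-γ + EZH2i than with EZH2i, and at least 2.23-fold with IFN-γ + EZH2i than in Ctr. It did not pass the filter, and without the filter edgeR gave a Benjamini-Hochberg adjusted p of 0.0269 for IFN-γ against Ctr, with 0.0172 from DESeq2. Microglia and macrophages are the cells best known for this gene, and their summed markers were at most 2.77 CPM in Ctr and at least 3.14 with IFN-γ, with 5 of the 12 at 3 counts or fewer in every library. With EZH2i in both arms the sums overlapped, at 2.25 to 3.07 CPM with EZH2i and 2.55 to 3.38 with IFN-γ + EZH2i. Others of the list were present, with Cd68 at 1.57 CPM on average in Ctr and 2.06 with IFN-γ, P2ry12 at 0.477 and 0.943, Csf1r at 0.231 and 0.350 and Itgam at 0.0463 and 0.192. Tmem119 was at 0.0113 and 0.0378 CPM, while Cx3cr1 (0.0709 and 0) and Ptprc (0.0774 and 0.0467) were lower with IFN-γ. Of the 12, 3 were tested and 0 called by edgeR, and the part of these cells in the value of Acod1 was not tested. Of 22 genes of the TCA cycle and itaconate breakdown, all tested, 0 were called in either direction by edgeR (median log2 fold change -0.03). Of all genes, 6.65% were called higher and 2.1% lower.

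Ch25h (chr19:34473778-34475164, minus strand) is a gene of 1 exon that encodes cholesterol 25-hydroxylase. It was at 6, 0 and 8 counts in Ctr and at 537, 936 and 708 with IFN-γ, or 18.0, 24.9 and 10.9 CPM. It was at 5, 4 and 4 counts with EZH2i and at 181, 563 and 545 counts, or 7.74, 17.1 and 13.5 CPM, with IFN-γ + EZH2i. Ch25h had the largest fitted rise of the 8 and also the widest relative spread with IFN-γ, 2.28 times between the lowest and the highest library. The rise was 7.06 on the log2 scale (SE 0.58, 95% interval 5.79 to 8.34, edgeR with Benjamini-Hochberg adjusted p = 5.35e-06), and 6.90 (SE 0.58, adjusted p = 6.34e-06) with EZH2i in both arms. Ch25h passed the count filter only through the groups with IFN-γ, so a difference was a condition of these tests. Gm26902, annotated as a noncoding RNA of a bidirectional promoter, overlaps Ch25h on the plus strand and went from at most 0.0709 CPM in Ctr to between 0.555 and 1.51 with IFN-γ (log2 fold change 4.97, SE 0.73, adjusted p = 0.000755), and its part in the value of Ch25h was not tested.

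Of 11 other genes of oxysterol synthesis, breakdown and sensing, all tested, 0 were called in either direction by edgeR with IFN-γ. Of all genes, 6.65% were called higher and 2.1% lower. Cyp7b1, which hydroxylates 25-hydroxycholesterol further, was at 4.68 ± 2.74 CPM in Ctr and 5.63 ± 3.84 with IFN-γ. Hsd3b7, the next enzyme, was at 6.15 ± 2.04 and 9.91 ± 1.38 CPM (log2 fold change 0.68, SE 0.24, edgeR with Benjamini-Hochberg adjusted p = 0.131), and Gpr183, the receptor of the dihydroxylated product, was under 1 CPM on average in both groups.

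Lap3 (chr5:45493374-45512691, plus strand) encodes a cytosolic leucine aminopeptidase that trims peptides, including products of the proteasome. It was at 94.6, 81.8 and 87.7 CPM in Ctr and at 272, 283 and 288 with IFN-γ. It was at 87.7, 85.5 and 86.7 CPM with EZH2i and at 271, 314 and 299 with IFN-γ + EZH2i. The groups with and without IFN-γ were separate, and Lap3 had the smallest SE of the 8. The rise was 1.67 on the log2 scale (SE 0.10, edgeR with Benjamini-Hochberg adjusted p = 2.83e-07), 3.19-fold, and 1.77 (SE 0.10, adjusted p = 1.69e-07) with EZH2i in both arms. Of 14 other aminopeptidases, 12 were tested and 1 was called higher, against 6.65% of all genes. This was Erap1, which trims peptides for MHC-I in the endoplasmic reticulum. It went from 21.4 ± 3.84 CPM in Ctr to 199 ± 11.6 with IFN-γ (log2 fold change 3.21, SE 0.17, adjusted p = 9.17e-08).

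**Figure D4:**
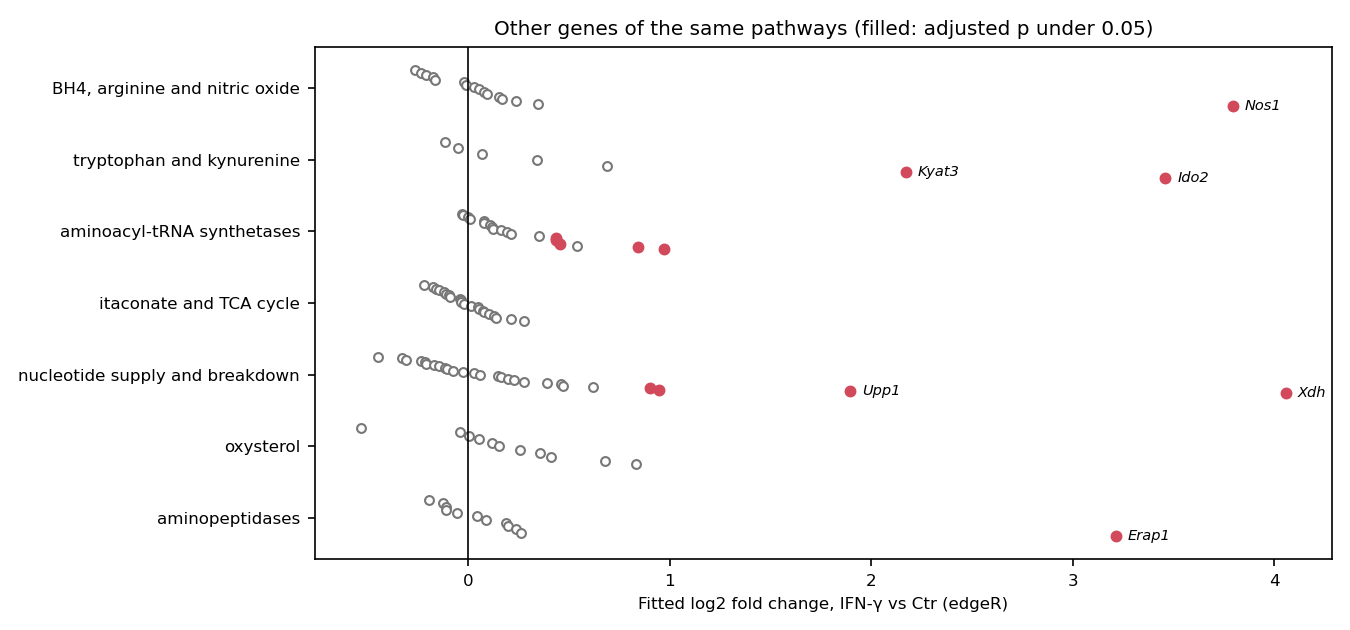
Fitted log2 fold change between IFN-γ and Ctr (edgeR) for 115 other genes of the same pathways, by list. Filled points were called, and names are given above a log2 fold change of 1.5. Of the 115 genes, 13 were called higher and 0 lower, against 6.65% and 2.1% of all genes, with none in the TCA and oxysterol lists.

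Over all 7 lists, 124 genes were named and 115 tested, with 13 called higher with IFN-γ than in Ctr, against 6.65% of all genes, 0 called lower, and a median log2 fold change of 0.08. Of the 13, Nos1, Xdh and Ido2 reached the level of the count filter in 0, 1 and 2 of the 6 libraries without IFN-γ and so passed through the groups with it, which made a difference a condition of their being tested. Of the 115, 110 reached it in at least 3 of those 6 libraries, and 10 of these were called higher. For EZH2i against Ctr, for IFN-γ + EZH2i against IFN-γ and for the interaction, edgeR called 0 of the 115.

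The effect of EZH2i on the enzymes was tested without and with IFN-γ. For EZH2i against Ctr, edgeR called 0 of the 8, against 0.405% of all genes in either direction, 1 of the 8 (Gch1) had an unadjusted p under 0.05, and DESeq2 called 0. For IFN-γ + EZH2i against IFN-γ, edgeR called 0 of the 8, against 0.353% of all genes, 0 had an unadjusted p under 0.05, and DESeq2 called 0. The intervals set the size of an effect that could have been missed. They come from the fit with group as the only term, so they do not use the pairing of IFN-γ and IFN-γ + EZH2i. Between EZH2i and Ctr the 95% interval of the log2 fold change was -0.24 to 0.19 for Lap3, -0.34 to 0.30 for Cmpk2, -0.26 to 0.37 for Wars and -0.61 to 0.03 for Samhd1, but -0.66 to 0.64 for Rsad2, 0.09 to 1.37 for Gch1, -1.99 to 1.34 for Ch25h and -1.24 to 2.42 for Ido1. Between IFN-γ + EZH2i and IFN-γ the interval was -0.15 to 0.28 for Lap3, -0.36 to 0.24 for Cmpk2, -0.27 to 0.36 for Wars, -0.31 to 0.32 for Samhd1, -0.40 to 0.65 for Rsad2, -0.37 to 0.85 for Gch1 and -0.94 to 1.00 for Ido1. Ch25h was lower on average with IFN-γ + EZH2i (12.8 ± 4.73 CPM) than with IFN-γ (17.95 ± 7.004 CPM), a difference within the spread of the libraries (log2 fold change -0.48, 95% interval -1.35 to 0.38, edgeR with Benjamini-Hochberg adjusted p = 0.999).

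Whether the response to IFN-γ differed with EZH2i was tested as an interaction. It was called by edgeR for 0 of the 8 enzymes, against 0% of all 18995 genes. None of the 8 had an unadjusted p under 0.05, as 127 of all genes did, and DESeq2 called 0. The 127 are a smaller share of the 18995 genes than the 0.05 given where nothing differs, so the lack of calls says little. The edgeR fit had group as the only term and did not use the replicate numbers. The log2 difference between the responses had a 95% interval of -0.21 to 0.40 for Lap3, -0.46 to 0.43 for Wars, -0.48 to 0.40 for Cmpk2, -0.16 to 0.74 for Samhd1 and -0.70 to 0.97 for Rsad2. It was wider for Gch1 (-1.37 to 0.39), Ch25h (-2.23 to 1.91) and Ido1 (-2.59 to 1.48), so a 2-fold larger and a 2-fold smaller response to IFN-γ with EZH2i both lay outside the interval for 5 of the enzymes. For Gch1 the smaller response lay inside it and the larger outside, and for Ch25h and Ido1 both lay inside.

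At the level of single transcripts, tested in an edgeR fit chosen after the data were seen, 10 of 27 transcripts of the enzymes that passed the filter were called higher with IFN-γ than in Ctr, against 1.78% of 58841 transcripts. Besides Wars-204 and Wars-205 they were Cmpk2-201, Rsad2-201, Ch25h-201, Samhd1-201, Samhd1-202, Lap3-201, Lap3-203 and Ido1-202. Wars-205, Ch25h-201 and Ido1-202 reached the level of the count filter in 0 of the 6 libraries without IFN-γ, so for them a difference was a condition of being tested. Of the 16 transcripts that reached it in at least 3 of those 6 libraries, 7 were called higher. Wars-201 was not called (log2 fold change 0.48, SE 0.15, Benjamini-Hochberg adjusted p = 0.208).

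Across the 12 libraries, Pearson's r of log2 CPM between pairs of the 8 enzymes was between 0.794 and 0.993, lowest between Gch1 and Samhd1 and highest between Cmpk2 and Samhd1. All 12 points share the step between libraries with and without IFN-γ, so these values are a description only. The genes with the most similar pattern among those with a mean of at least 1 CPM were Rnf213 for Cmpk2 (r = 0.999), Dtx3l for Lap3 (r = 0.999), Stat3 for Wars (r = 0.998), Bmp2k for Rsad2 (r = 0.997), BC023105 for Samhd1 (r = 0.996), Ifit3 for Ido1 (r = 0.996), Gemin5 for Ch25h (r = 0.992) and Prnp for Gch1 (r = 0.956). By fitted rise with IFN-γ among the 18995 genes, Ch25h was at place 103, Rsad2 at 237, Cmpk2 at 324, Wars at 447, Samhd1 at 475, Lap3 at 815 and Gch1 at 1057.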

How the data were processed

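Bulk RNA-seq of 12 OPC libraries (3 per group from different litters, TruSeq Stranded Total RNA Gold) was used. The authors trimmed the reads and ran Salmon 0.8.2, and the deposited estimated count and TPM of each transcript are used as they stand. All 141862 transcripts matched GENCODE M21 on GRCm38. The deposited tables of the authors' own DESeq2 comparisons (fold changes, p-values) were not used. Estimated counts were summed per gene, rounded, filtered with filterByExpr and tested with edgeR 4.0.16 (TMM factors, quasi-likelihood test, group as the only term, all 12 libraries, Benjamini-Hochberg adjustment) in R 4.3.3. The functions were tested on simulated data. All 10 enzymes are named, and the other genes by list and call, of which some are not reported here. The enzymes and lists were chosen with earlier results of these data known. Replicates of a group differed by a chi-square of at least 32.1 per gene.

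Labels give replicate numbers 1 to 3. Same-number deviations from the group means correlated at 0.496 or more between EZH2i and IFN-γ + EZH2i and at 0.493 or more between IFN-γ and IFN-γ + EZH2i, so the numbers were taken to pair these groups. Correlations between unlike numbers are not given here. Replicate 3 was the deepest library of every group, and the part of depth in these correlations was not tested. In comparisons with Ctr, replicate 2 correlated at 0.0134 to 0.0854, under the cut of 0.1, so these were not treated as paired. Replicates 1 and 3 correlated at 0.411 to 0.544 there, so this rests on replicate 2. Alternatives were RLE factors, DESeq2 1.42.0, other filters, a replicate block, length-scaled TPM, only the libraries compared, a further minimum of 1 on the absolute log2 fold change, and leaving out single libraries. The replicate block was fitted over all 12 libraries, Ctr included. Fits per transcript and by Wars start were added after the data were seen.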

Additional observations from a re-analysis of the deposited data

How the results depend on the processing

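The number of enzymes called stayed within 1.5 times under every alternative in all 6 contrasts. With IFN-γ it was 8 against Ctr and 7 with EZH2i in both arms, 9 and 8 with DESeq2 or without the filter on low counts, where Acod1 was added, and 6 and 5 with at least 10 counts in every library, where 6 enzymes were tested. The replicate block changed the call of 1 enzyme in any contrast, Gch1 with EZH2i in both arms (0.82 on the log2 scale, called), as given above for the groups taken as paired. It was 7 against Ctr without Ctr replicate 2, Ctr replicate 3 or IFN-γ replicate 1, where Gch1 was lost, and 8 without each other library. No contrast of EZH2i and no interaction gave a call under any alternative. On TPM in place of CPM, 8 log2 ratios of group means moved by more than the SD between replicates, and none of a called difference changed sign.

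Directions of uncalled changes near 0 turned. For EZH2i against Ctr the log2 fold change of Rsad2 was 0.028 with the replicate block, and with length-scaled TPM that of Wars was -0.059 and that of Lap3 0.0019. Leaving out 1 library at a time, it ran from -0.13 to 0.11 for Cmpk2, -0.22 to 0.20 for Rsad2, -0.0099 to 0.13 for Wars, -1.07 to 1.28 for Ido1, -0.078 to 0.039 for Lap3 and -0.70 to 0.10 for Ch25h. For IFN-γ + EZH2i against IFN-γ, Samhd1 was at -0.0076 without the filter and -0.0048 with only the 6 libraries compared, and leaving out libraries gave -0.061 to 0.27 for Rsad2, -0.066 to 0.16 for Wars, -0.077 to 0.13 for Samhd1 and -0.11 to 0.10 for Ido1. For the interaction, the replicate block gave 0.00044 for Wars and 0.011 for Ch25h, length-scaled TPM gave 0.083 for Cmpk2 and 0.11 for Wars, and leaving out libraries gave -0.17 to 0.072 for Cmpk2, -0.079 to 0.35 for Rsad2, -0.12 to 0.11 for Wars, -1.25 to 1.10 for Ido1 and -0.58 to 0.21 for Ch25h. The cause was not tested.

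The depth, 17403896 counts in the shallowest library, limits Nos2, Acod1, Ido1 and Ch25h, whose levels without IFN-γ rest on 9 counts or fewer a library.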
